A study of Mus musculus with 12 samples.

Results

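The MS4A proteins are a family of small membrane proteins, and 6 genes of the family were described here in mouse dendritic cells: Ms4a4c, Ms4a4b, Ms4a6c, Ms4a6b, Ms4a6d and Ms4a7. They were taken by gene symbol, each from the probe set annotated with that symbol and no other gene, and 6 of the 6 symbols had such a probe set among the 19937 genes of the table. Each of the 6 had 1 probe set. The family was chosen by a measured value, the curdlan difference of Ms4a4c in knockout cells, which was among the largest of all genes, so that difference and every value that contains it are given below as a description, with no test.

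The 12 samples, each hybridised to 1 Affymetrix Mouse Gene 1.0 ST array, formed 4 groups of 3: IL-2 knockout cells given curdlan for 6 h, untreated knockout cells, wild-type cells given curdlan for 6 h and untreated wild-type cells. All were dendritic cells grown for 7 days from bone marrow with GM-CSF at 200 ng/ml and enriched on beads against CD11c to a stated purity above 95%. The strain label of all 12 arrays, the wild-type ones included, names the allele B6.129P2-Il2tm1Hor/J, so genotype was read from titles and genotype labels. The sources used here give no age or sex of the mice and do not say whether arrays of a group stand for separate animals. The p-values therefore rest on a spread between arrays that may be technical. The values are log2 expression after RMA, and a difference of 1 is a 2-fold change.

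Proteins of the MS4A family cross the cell membrane several times and work as partners or parts of receptors. The best known are Ms4a1, which is CD20 on B cells, and Ms4a2, the beta chain of the high-affinity receptor for IgE on mast cells. Other members are expressed in monocytes, macrophages and dendritic cells, and MS4A4A was found in macrophages to associate with Dectin-1, the receptor (gene Clec7a) for the fungal-type beta-glucan curdlan. The mouse genes lie side by side on chromosome 19, where several of them are duplicates of one another.

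Array medians lay between 6.59 and 6.64, and the correlation between arrays across probe sets ran from 0.981 to 0.997. The disrupted gene, Il2, read 5.63 to 5.87 in curdlan-treated knockout cells, 5.77 to 6.04 in untreated knockout cells, 6.74 to 7.80 in curdlan-treated wild-type cells and 5.37 to 5.56 in untreated wild-type cells. It was thus lower in knockout than in wild-type cells after curdlan and higher without it, and the sources used here do not say whether its probes lie in the disrupted part. Curdlan-treated knockout array 3 stood apart from the other 2 arrays of its group. It was the lowest of the 3 for 6 of the 6 MS4A genes and for 18 of the 18 interferon-stimulated genes measured, whose mean deviation from the group mean was -0.39 on that array. Array 2 of that group was the highest of the 3 for 6 of the 6 MS4A genes.

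Ms4a4c, a close relative of Ms4a4a and Ms4a4b, rose with curdlan in wild-type cells, and its mean level in curdlan-treated cells differed by 0.03 between the genotypes. Its log2 level was 11.75, 12.26 and 10.69 in curdlan-treated knockout cells, against 7.90, 8.09 and 7.51 in untreated knockout cells. Wild-type cells gave 11.59, 11.53 and 11.50 with curdlan, against 8.78, 9.22 and 8.55 untreated. In neither genotype did the treated and untreated arrays overlap. In knockout cells the difference was 3.74 on the log2 scale, or 13.3-fold. It ranked 3, with 0.015% of genes at or above it, and is the value Ms4a4c was chosen by. In wild-type cells the rise was 2.69 ± 0.31 (SE of the fit), which is 6.45-fold, with an adjusted p of 0.000197 from limma's moderated test over all 19937 genes. The wild-type rise ranked 25, and 0.125% of genes rose by at least as much. Between same-numbered arrays the difference was 3.85, 4.17 and 3.18 in knockout cells, against 2.81, 2.31 and 2.95 in wild-type cells, so the smallest knockout pair lay above the largest wild-type pair.

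Between the genotypes, untreated knockout cells had less Ms4a4c, while the order of the treated cells turned on which array was left out. Its mean level was 7.83 ± 0.29 (SD, n = 3) in untreated knockout cells, against 8.85 ± 0.34 (SD, n = 3) in untreated wild-type cells, a difference of -1.02 with no overlap of the arrays. The choice of Ms4a4c by its knockout curdlan difference favours a low untreated knockout level, so this gap was not tested. With curdlan its mean was 11.57 ± 0.80 (SD, n = 3) in knockout cells, against 11.54 ± 0.04 (SD, n = 3) in wild-type cells, a difference of 0.03. Treated knockout arrays 1 and 2 lay above the 3 treated wild-type arrays and array 3 lay below them. The treated difference was 0.46 without treated knockout array 3 and -0.32 without treated knockout array 2. In order of level, curdlan-treated knockout and wild-type cells stood together at the top, their order within the spread of the arrays, then untreated wild-type cells, then untreated knockout cells. The curdlan difference in knockout cells exceeded that in wild-type cells by 1.05 ± 0.44 (SE). Without treated knockout array 3 the knockout difference was 4.17 and the excess 1.48, and without treated knockout array 2 they were 3.39 and 0.70.

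Ms4a4b, which in mouse T cells is known as a partner of the receptor GITR, rose with curdlan in wild-type cells by a smaller amount and at a dim level. It read 4.97, 5.15 and 4.56 in curdlan-treated knockout cells, against 4.02, 4.07 and 3.98 in untreated knockout cells. Wild-type cells gave 4.86, 4.86 and 4.74 with curdlan, against 4.06, 4.19 and 4.19 untreated. Treated arrays lay above untreated ones in both genotypes. The knockout difference was 0.87, and the wild-type rise was 0.67 ± 0.12 (SE, 1.59-fold, adjusted p 0.00252). The lower quartile of the arrays lay between 5.08 and 5.15, so 3 of the 4 groups were wholly below it. Weak signals are compressed, while probes that also read the brighter Ms4a4c would add to a rise. Neither was tested, so the size of the fold is uncertain. The 2 treated groups overlapped, as did the 2 untreated ones, at 4.02 ± 0.04 (SD, n = 3) in knockout and 4.15 ± 0.08 (SD, n = 3) in wild-type cells.

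**Figure D1:**
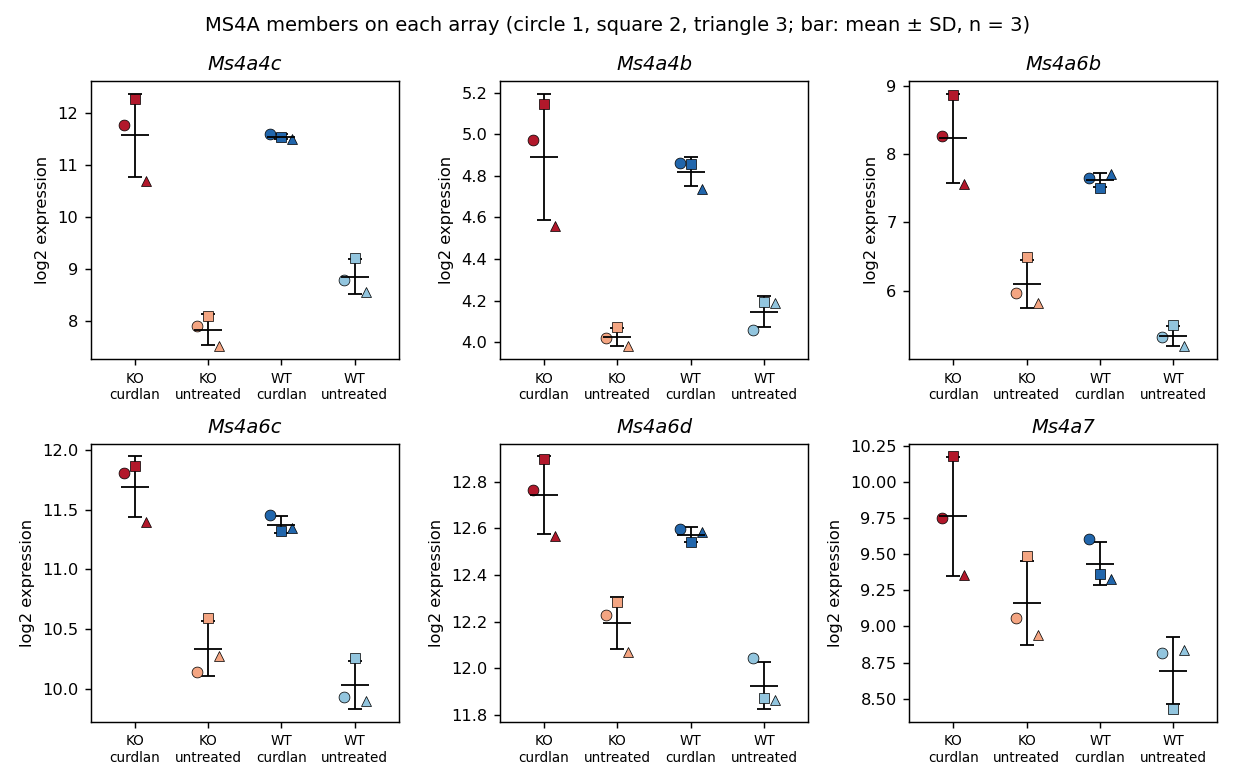
Log2 expression of the 6 MS4A genes on each of the 12 arrays, by group. Circles, squares and triangles are arrays 1, 2 and 3 of a group, and bars give the mean and SD of the 3 arrays. Curdlan-treated arrays lay above untreated arrays of the same genotype in every panel except for 1 pair of Ms4a7 values in knockout cells, and untreated knockout arrays lay below untreated wild-type arrays without overlap in the Ms4a4c panel alone.

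Ms4a4c and Ms4a4b are neighbours in the cluster and have similar sequence before their start sites. The 250 bases before the start of each are shown because these genes moved together, with a Pearson r of 0.979 over the 12 arrays. Both are from RefSeq on the build GRCm38.p6 and the + strand, 5′ to 3′, at chr19:11407411-11407660 for Ms4a4c and chr19:11443308-11443557 for Ms4a4b. Capitals mark a match to a motif of the kind NF-kB binds, written as 3 G, then 5 bases of any kind, then 2 C.
Ms4a4c: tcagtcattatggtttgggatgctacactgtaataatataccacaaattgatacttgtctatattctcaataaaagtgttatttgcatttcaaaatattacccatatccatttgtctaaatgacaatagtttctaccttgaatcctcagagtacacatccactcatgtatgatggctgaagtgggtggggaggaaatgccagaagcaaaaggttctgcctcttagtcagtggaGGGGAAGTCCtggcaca
Ms4a4b: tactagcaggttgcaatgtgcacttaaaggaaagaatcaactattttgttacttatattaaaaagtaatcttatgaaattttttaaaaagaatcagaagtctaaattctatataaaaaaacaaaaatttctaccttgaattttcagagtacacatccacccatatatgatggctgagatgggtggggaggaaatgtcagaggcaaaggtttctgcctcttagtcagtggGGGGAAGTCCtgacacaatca
The windows were identical at 178 of 252 aligned positions (70.6%), and the longest run of bases they shared was 20. The match is the same 10 letters in both, GGGGAAGTCC, at 17 to 8 bases before the start of Ms4a4c and 21 to 12 before that of Ms4a4b. GAGGAA, a motif of the kind the myeloid factor PU.1 binds, lay at 61 to 56 and at 64 to 59 bases before the start. Both motifs were searched on both strands and chosen after the sequences were seen. The NF-kB-type motif occurs in 45.8% and GAGGAA in 23.3% of the 32851 mouse promoter windows of this length. A match describes the letters and does not show that a factor binds there.

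The pair Ms4a6c and Ms4a6b rose together as well. Ms4a6c read 11.81, 11.87 and 11.40 in curdlan-treated knockout cells, against 10.14, 10.59 and 10.28 in untreated knockout cells. In wild-type cells it read 11.45, 11.32 and 11.34 with curdlan, against 9.93, 10.26 and 9.90 untreated. The treated and untreated arrays were separate in each genotype. The knockout difference was 1.36, and the wild-type rise was 1.34 ± 0.14 (SE, 2.54-fold, adjusted p 0.000111). The excess of the first over the second was 0.01 ± 0.20 (SE), with a 95% interval of -0.43 to 0.46. In order of level, the curdlan-treated groups came first and the untreated groups last, with knockout and wild-type arrays overlapping within each.

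Ms4a6b showed the second largest rise of the 6 in wild-type cells. It read 8.27, 8.86 and 7.56 in curdlan-treated knockout cells, against 5.97, 6.50 and 5.83 in untreated knockout cells. In wild-type cells it read 7.65, 7.51 and 7.70 with curdlan, against 5.32, 5.50 and 5.20 untreated. Again no treated array overlapped an untreated one of its genotype. The knockout difference was 2.13, and the wild-type rise was 2.28 ± 0.26 (SE, 4.86-fold, adjusted p 0.000181), which ranked 34 among all genes. Untreated wild-type arrays lay just above the lower quartile of the arrays, 5.08 to 5.15, where signals are compressed. Probes that also read the brighter Ms4a6c would add to a rise. Neither was tested, so the size of the fold is uncertain. Unlike Ms4a4c, Ms4a6b was higher in untreated knockout cells, at 6.10 ± 0.35 (SD, n = 3), than in untreated wild-type cells, at 5.34 ± 0.15 (SD, n = 3), with no overlap. With curdlan the arrays of the genotypes overlapped, at 8.23 ± 0.65 (SD, n = 3) in knockout and 7.62 ± 0.10 (SD, n = 3) in wild-type cells.

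The windows before Ms4a6c and Ms4a6b are shown because these genes had the highest correlation of the 15 member pairs, 0.987 over the 12 arrays. They are from RefSeq on GRCm38.p6, + strand, 5′ to 3′, at chr19:11469118-11469367 for Ms4a6c and chr19:11518309-11518558 for Ms4a6b. Capitals mark matches to GAAANNGAA, a motif of the kind found in interferon response elements.
Ms4a6c: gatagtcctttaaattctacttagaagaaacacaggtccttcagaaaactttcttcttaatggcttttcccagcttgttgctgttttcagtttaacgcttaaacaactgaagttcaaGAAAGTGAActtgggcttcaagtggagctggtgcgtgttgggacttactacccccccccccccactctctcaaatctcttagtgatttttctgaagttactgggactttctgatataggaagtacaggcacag
Ms4a6b: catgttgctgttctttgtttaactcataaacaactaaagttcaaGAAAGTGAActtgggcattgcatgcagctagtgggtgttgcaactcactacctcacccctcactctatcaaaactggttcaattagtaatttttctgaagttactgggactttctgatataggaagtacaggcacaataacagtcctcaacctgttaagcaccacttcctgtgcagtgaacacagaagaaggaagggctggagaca
The overlapping parts of the windows were identical at 149 of 183 aligned positions (81.4%) and shared a run of 48 bases. The match is GAAAGTGAA in both, at 133 to 125 bases before the start of Ms4a6c and 206 to 198 before that of Ms4a6b. This motif, also chosen after the sequences were seen, occurs on either strand in 7.13% of all 32851 windows. It was in neither the Ms4a4c nor the Ms4a4b window, which says only that these letters are not in those 250 bases. The NF-kB-type motif was also in the Ms4a6c window, as GGCTTTTCCC on the opposite strand, at 189 to 180 bases before the start, and not in that of Ms4a6b. Ms4a7 has 2 annotated starts, and each window held 1 match to GAAANNGAA. It was TTCGTTTTC at 71 to 63 bases before the first start, on the opposite strand, and GAAAAGGAA at 148 to 140 before the second. TTCNNNGAA, a motif of the kind STAT factors bind, was in 0 of the members' windows and in 7.02% of all windows. The promoter table held 5 of the 6 members, and Ms4a6d was not among them.

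Ms4a6d and Ms4a7 had the smallest differences of the 6 in knockout cells, and in wild-type cells Ms4a6d and Ms4a4b had the smallest rises. Ms4a6d, known in mouse macrophages as a partner of the inhibitory receptor VSIG4, read 12.76, 12.90 and 12.56 in curdlan-treated knockout cells, against 12.23, 12.29 and 12.07 in untreated knockout cells. Wild-type cells read 12.60, 12.54 and 12.59 with curdlan, against 12.04, 11.87 and 11.86 untreated. Treated arrays lay above untreated ones in each genotype. The knockout difference was 0.55, and the wild-type rise was 0.65 ± 0.09 (SE, 1.57-fold, adjusted p 0.000539). Untreated arrays of Ms4a6d were higher in knockout cells, at 12.19 ± 0.11 (SD, n = 3), than in wild-type cells, at 11.93 ± 0.10 (SD, n = 3), without overlap, and treated arrays overlapped.

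Ms4a7, a gene of monocytes and macrophages that marks macrophages of the brain's borders in mice, read 9.75, 10.18 and 9.36 in curdlan-treated knockout cells, against 9.06, 9.49 and 8.94 in untreated knockout cells. In wild-type cells it read 9.61, 9.37 and 9.33 with curdlan, against 8.82, 8.43 and 8.84 untreated. Among the 6 genes, Ms4a7 was the one whose treated and untreated arrays overlapped in a genotype, since treated knockout array 3 lay below untreated knockout array 2. The knockout difference was 0.60, or 0.80 without treated knockout array 3 and 0.39 without treated knockout array 2. The wild-type rise of Ms4a7 was 0.74 ± 0.20 (SE, 1.67-fold, adjusted p 0.0225). Ms4a7 was higher in untreated knockout cells, at 9.16 ± 0.29 (SD, n = 3), than in untreated wild-type cells, at 8.69 ± 0.23 (SD, n = 3), without overlap, and the treated groups overlapped. The wild-type call was lost without treated wild-type array 1 (adjusted p 0.0852), without untreated wild-type array 2 (0.0896), and without both arrays numbered 1 (0.122), 2 (0.137) or 3 (0.0617).

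Set beside the whole array, 6 of 6 members passed as higher with curdlan in wild-type cells, while 7.27% of all genes did so and 12.3% passed as lower. The median difference of the 6 was 1.11 in knockout cells, with a range of 0.55 to 3.74, and 1.04 in wild-type cells, with a range of 0.65 to 2.69. The median of all genes was 0.04 in knockout and 0.02 in wild-type cells. In knockout cells treated arrays lay above untreated ones for 5 of 6 members and for 19.4% of all genes, a count that the choice of Ms4a4c touches. In wild-type cells they did so for 6 of 6 members and for 17% of all genes. Fewer cells of a type and less RNA per cell cannot be told apart in these bulk samples.

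**Figure D2:**
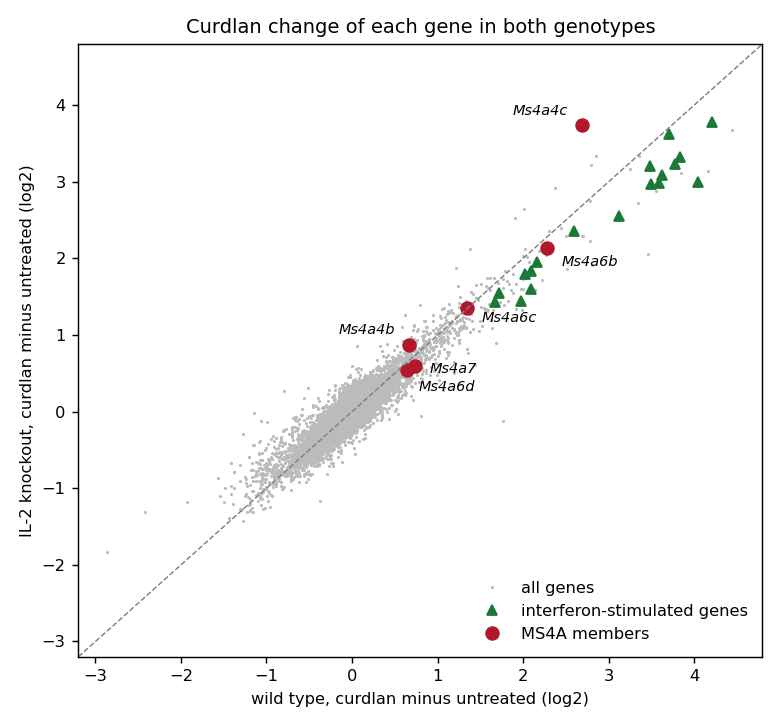
Curdlan difference of each of the 19937 genes (log2, treated minus untreated), in knockout cells on the vertical axis and in wild-type cells on the horizontal axis. Red circles are the 6 MS4A genes, green triangles the 18 interferon-stimulated genes and the dashed line marks equal differences. Ms4a4c lies above the line, at 3.74 in knockout and 2.69 in wild-type cells, the other 5 members lie near it, and most of the triangles lie below it.

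The genes described lie in one stretch of the MS4A cluster, where 7 of 8 measured genes rose with curdlan in wild-type cells, against 0 of the 11 measured Ms4a genes outside it and 7.27% of all genes. The stretch was bounded by the first and last of the 6 members, which make up 6 of those 7 genes, so the contrast follows in part from how it was drawn. Most of the 11 genes outside it were also dim, at or below 5.48 on all arrays, as were Ms4a4b and Ms4a4d within it. The reference gene table lists 21 Ms4a genes on chromosome 19, of which 19 were measured, and 9 protein-coding genes run from Ms4a7 to Ms4a6d in the order Ms4a7, Ms4a4a, Ms4a4c, Ms4a4b, Ms4a6c, Gm8369, Ms4a6b, Ms4a4d and Ms4a6d. Of the 3 that are not members, Ms4a4d rose with curdlan in wild-type cells by 0.42 ± 0.06 (SE, adjusted p 0.00116). Ms4a4d was dim, with 4.98 to 5.15 in curdlan-treated wild-type cells against 4.53 to 4.68 in untreated wild-type cells, so the size of its change is uncertain. Gm8369 had no probe set with its symbol alone. Its window before the start matched those of Ms4a4b and Ms4a4c at 73.9% and 68.8% of aligned positions and held the same GGGGAAGTCC.

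Ms4a4a, the mouse gene of the Dectin-1 partner, lies between Ms4a7 and Ms4a4c and did not pass in wild-type cells. It read 9.49, 9.77 and 9.67 in curdlan-treated knockout cells, against 8.37, 8.71 and 9.28 in untreated knockout cells. In wild-type cells it read 9.19, 9.56 and 9.88 with curdlan, against 9.07, 9.75 and 9.62 untreated. The treated arrays lay above the untreated ones in knockout cells and overlapped with them in wild-type cells. The difference was 0.86 in knockout cells and 0.06 ± 0.24 in wild-type cells (SE, adjusted p 0.882), and the excess of 0.79 in knockout cells was not tested.

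For the 11 measured Ms4a genes outside that stretch, the differences ran from -0.07 to 0.23 in knockout cells and from -0.03 to 0.25 in wild-type cells. In limma's test 0 of the 11 passed in wild-type cells, and 0 had an unadjusted p under 0.05, while 6290 of all 19937 genes did. Ms4a8a read 8.83 to 9.41 in curdlan-treated knockout cells and 8.86 to 9.08 in untreated knockout cells, against 9.14 to 9.60 and 8.97 to 9.31 in wild-type cells, with a wild-type change of 0.25 ± 0.16 (SE, adjusted p 0.310). Ms4a1, the CD20 gene, stood at or below 4.51 on all arrays, with a change of -0.03 (adjusted p 0.712). Ms4a2, the IgE receptor beta chain gene, stood at or below 4.12 on all arrays, with a change of 0.04 (adjusted p 0.592). Ms4a3, Ms4a5, Ms4a12, Ms4a13, Ms4a19 and Ms4a20 stood at or below 5.48 on all arrays, and Ms4a10 and Ms4a15 changed by 0.08 and 0.14 (adjusted p 0.667 and 0.229). The related genes Tmem176a and Tmem176b, which lie elsewhere in the genome, did not pass either, with changes of -0.16 (adjusted p 0.746) and -0.31 (adjusted p 0.452).

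**Figure D3:**
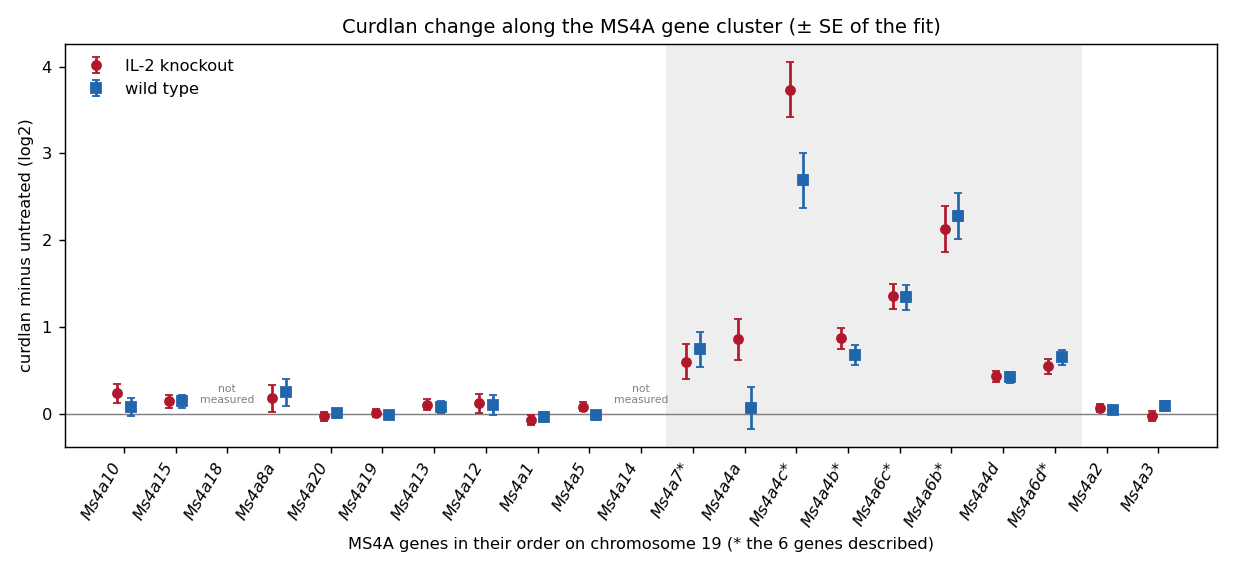
Curdlan difference (log2, treated minus untreated, with SE of the fit) of the MS4A genes in their order on chromosome 19, as red circles for knockout cells and blue squares for wild-type cells. The shaded stretch runs from Ms4a7 to Ms4a6d, stars mark the 6 genes described, and equal steps on the axis are not distances. Differences outside the stretch ran from -0.07 to 0.25, and within it from 0.06 for Ms4a4a in wild-type cells to 3.74 for Ms4a4c in knockout cells.

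Genotype, averaged over both treatments, moved 0 of the 6 members past the threshold in limma's test, while 5.04% of all genes passed, 1.48% as higher in knockout cells and 3.56% as lower. This fit counts the 12 arrays as separate, though same-numbered arrays of a genotype were taken as pairs. With the mean of each pair as 1 value, 99 genes passed in place of 1005, and 0 members. The values that follow are from the fit of separate arrays. The averaged difference was 0.69 ± 0.19 for Ms4a6b (SE, adjusted p 0.0595), 0.22 ± 0.06 for Ms4a6d (0.0712), 0.31 ± 0.10 for Ms4a6c (0.121), 0.40 ± 0.14 for Ms4a7 (0.159), -0.50 ± 0.22 for Ms4a4c (0.287) and -0.02 ± 0.08 for Ms4a4b (0.934). At an unadjusted p under 0.05, 5 of the 6 differed, as did 16.7% of all genes, and the 95% interval of Ms4a6b, for that gene on its own, ran from 0.28 to 1.09. Missing the threshold therefore does not show equal levels. Without treated knockout array 3, 4 members passed as higher, namely Ms4a6b (0.85, adjusted p 0.00797), Ms4a6d (0.26, 0.0231), Ms4a6c (0.39, 0.0382) and Ms4a7 (0.50, 0.0487). In that fit 286 of all 19937 genes passed as higher and 660 as lower. That array was the lowest of its group for 6 of the 6 members, so leaving it out raises their knockout means. Without both knockout arrays numbered 3, 3 passed, namely Ms4a6b (0.92, 0.00685), Ms4a6d (0.29, 0.0133) and Ms4a7 (0.55, 0.0367), and without untreated wild-type array 1, Ms4a6d passed (0.25, 0.0455). Of all 19937 genes, 254 passed as higher and 687 as lower in the first of these fits, and 429 and 780 in the second.

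Within one treatment the genotype differences of the members are given as values. In untreated cells 3 members were higher in knockout cells with no overlap, Ms4a6b by 0.76, Ms4a7 by 0.47 and Ms4a6d by 0.27, and Ms4a4c was lower by the same criterion. The way Ms4a4c was chosen favours that lower level. For all genes the shares without overlap were 7.55% higher and 7.88% lower. In curdlan-treated cells 0 of the 6 were separate in either direction, while 7.71% of all genes were separate and higher in knockout cells. Without treated knockout array 3, 6 of the 6 were separate and higher in knockout cells, as were 17% of all genes. The differences in treated cells ran from 0.03 for Ms4a4c to 0.61 for Ms4a6b, or from 0.24 to 0.94 without that array. Some dendritic cell markers differed by genotype. Of 8 measured, Zbtb46, Dpp4 and Cd209a passed as lower in knockout cells and 0 as higher, while 3.56% of all genes passed as lower. That fit counts the arrays as separate, and no values of these genes were taken for means of same-numbered arrays. The median difference of the 8 was -0.135. Their mean level was 10.23 to 10.47 over the knockout arrays, against 10.77 to 10.97 over the wild-type arrays. Cd209a, whose levels are given below, weighs on that mean. Whether that difference has a part in the MS4A values was not tested.

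Array by array, the 6 genes deviated from their group means together. Treated knockout array 2 was the highest of its group for 6 of 6 members and array 3 the lowest for 6 of 6. Untreated knockout array 2 was the highest for 6 of 6 and array 3 the lowest for 5 of 6. Ms4a4c deviated by 0.69 on treated knockout array 2 and by -0.87 on array 3, and Ms4a6b by 0.63 and -0.67. On treated wild-type arrays the deviation stayed between -0.04 and 0.05 for Ms4a4c and between -0.11 and 0.08 for Ms4a6b. Over the 15 pairs of members, the Pearson r of the deviations ran from 0.505, for Ms4a6c with Ms4a6d, to 0.936, for Ms4a4c with Ms4a6b, with a median of 0.775. Over the values of the 12 arrays it ran from 0.694, for Ms4a4c with Ms4a7, to 0.987. These are descriptions of 12 arrays that share group means, normalisation and, for neighbouring duplicates, probes that may read both genes, which was not tested.

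**Figure D4:**
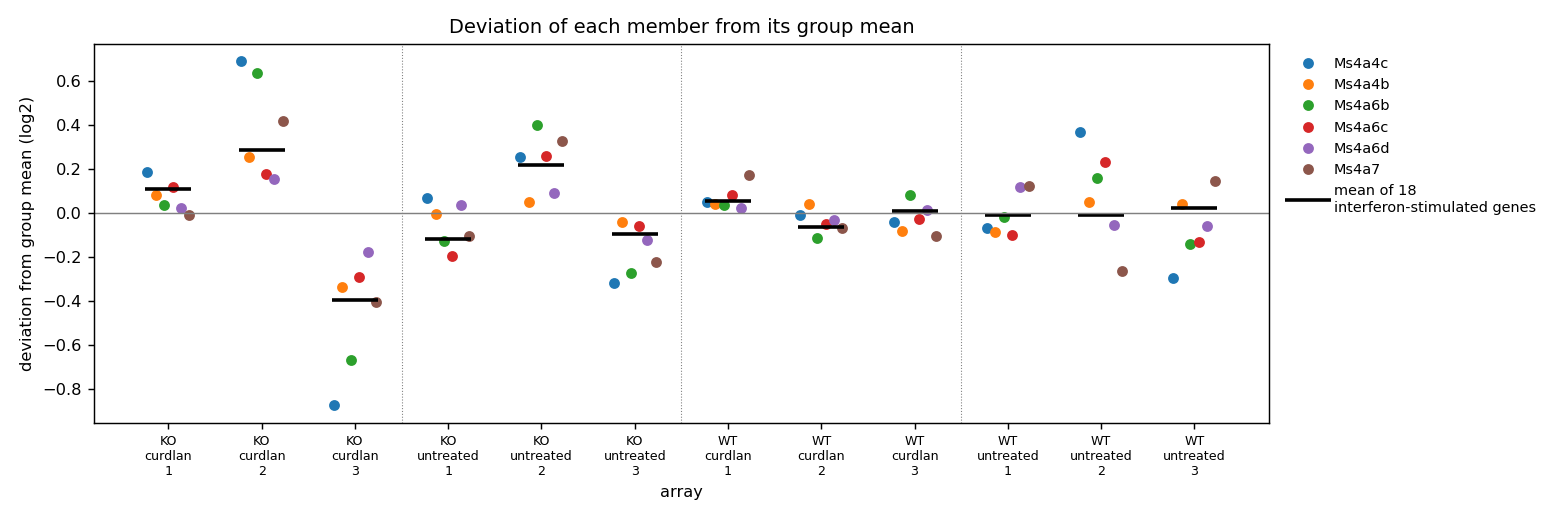
Deviation of each MS4A gene from its group mean (log2) on each of the 12 arrays, with a dot per gene and a black bar for the mean deviation of the 18 interferon-stimulated genes. Treated knockout array 3 lies lowest, at -0.87 for Ms4a4c and -0.39 for the interferon-stimulated genes, and the treated wild-type arrays lie close to 0.

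Genes with the pattern most like a member were taken by Pearson r over the 12 arrays among 9676 brighter genes, as a description of these arrays. For Ms4a4c the first was Cd69, an early activation marker (r = 0.997), followed by Cd40, the costimulatory receptor (0.988), the ubiquitin ligase gene Rnf114 (0.984), the transcription factor gene Maff (0.983) and Tapbpl, which encodes a peptide editor of MHC class I (0.982). The curdlan difference was 2.52 in knockout and 1.91 in wild-type cells for Cd69, and 2.92 and 2.37 for Cd40. That these differences resemble those of Ms4a4c follows in part from picking genes by likeness over the same arrays. For Ms4a4b the first was Rnf31, of the linear ubiquitin ligase (0.987), before Cd69 (0.985) and Rnf114 (0.984). Ms4a6b was most like the interferon-inducible GTPase gene Iigp1 (0.992), the protein C receptor gene Procr (0.992) and the peptidoglycan sensor gene Nod1 (0.991). Ms4a6c was most like the intramembrane protease gene Sppl2a (0.990), the helicase gene Ddx60 (0.988) and the poly(A) polymerase gene Tent4a (0.983). For Ms4a6d they were Procr (0.991), the sorting nexin gene Snx10 (0.990) and Samd9l (0.989). Ms4a7 had no gene as close, the first being Kdr, the VEGF receptor (0.964), before Ammecr1 (0.959) and Mdfic (0.956).

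Interferon-stimulated genes rose in wild-type cells, and the median of their knockout minus wild-type excess had the opposite sign to that of Ms4a4c. In wild-type cells 18 of the 18 measured passed as higher with curdlan and 0 as lower, with the largest changes in Ifit2 (4.22 ± 0.17, SE), Ifi205 (4.05 ± 0.19), Slfn4 (3.84 ± 0.28) and Ifit3 (3.77 ± 0.13). Their median was 2.76 in knockout and 3.31 in wild-type cells, and the median of their knockout minus wild-type excess was -0.46, against 1.05 for Ms4a4c and a median of -0.04 over the 6 members. Without treated knockout array 3, the lowest of its group for each of the 18, these values were -0.19, 1.48 and 0.17, and without treated knockout array 2 they were -0.60, 0.70 and -0.13. The mean level of the 18 was 9.02 to 9.35 in untreated knockout cells, above the 8.70 to 8.73 of untreated wild-type cells. With curdlan it was 11.28 to 11.96 in knockout and 11.60 to 11.72 in wild-type cells. The genotypes were thus apart before curdlan and overlapped after it, and the 1.05 contains the value Ms4a4c was chosen by. By genotype 0 of the 18 passed, and 8 had an unadjusted p under 0.05, as did 16.7% of all genes. Of 13 genes of interferon signalling, 7 passed as higher in wild-type cells and 0 as lower, among them the transcription factor genes Irf7 (3.35 ± 0.20), Stat2 (1.37 ± 0.13) and Irf1 (1.19 ± 0.13) and the feedback protease gene Usp18 (1.79 ± 0.10). Of all genes, 7.27% passed as higher with curdlan and 12.3% as lower. By genotype, Ifnar2 passed as higher in knockout cells (0.20) and Irf8 as lower (-0.31), against 1.48% and 3.56% of all genes. With the mean of same-numbered arrays as 1 value, the adjusted p was 0.227 for Ifnar2 and 0.140 for Irf8. Ifnb1, the interferon beta gene, which read 4.78 to 5.10 in curdlan-treated and 4.61 to 4.72 in untreated knockout cells, read 4.65 to 5.02 in curdlan-treated wild-type cells, against 4.73 to 4.87 in untreated wild-type cells (0.02 ± 0.10, adjusted p 0.933).

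Receptors tied to MS4A proteins, together with enzymes that act on or after such receptors, had changes of -0.31 to 0.22 with curdlan in wild-type cells. Clec7a, the curdlan receptor Dectin-1, read 12.53 to 12.69 in curdlan-treated and 12.61 to 12.71 in untreated knockout cells, against 12.51 to 12.60 and 12.50 to 12.54 in wild-type cells. Its wild-type change was 0.04 ± 0.06 (SE, adjusted p 0.662). Of the 9 measured, 2 passed as higher with curdlan, the kinase gene Syk (0.22, adjusted p 0.0198) and the sheddase gene Adam17 (0.22, 0.0110), and 1 as lower, Trem2 (-0.25, 0.0204), the lipid receptor gene of myeloid cells. Of all genes, 7.27% passed as higher and 12.3% as lower, so these counts were not set apart from the whole array. Syk lost its call without treated wild-type array 1 (0.0728), untreated array 2 (0.0776), or both arrays numbered 1 (0.121) or 2 (0.127), and Adam17 without both arrays numbered 1 (0.0740) or 2 (0.123). Trem2 lost it with only the wild-type arrays in the fit (0.0601), without treated array 2 (0.0771), untreated array 1 (0.0805) or 3 (0.0591), or both numbered 1 (0.135) or 3 (0.0713).

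By genotype, Tnfrsf18, which encodes the Ms4a4b partner GITR, was lower in knockout cells by 0.69 on the log2 scale (-0.69 ± 0.11, SE, adjusted p 0.00525). It read 7.65 to 7.88 in curdlan-treated and 7.35 to 7.80 in untreated knockout cells, against 8.10 to 8.68 and 8.08 to 8.46 in wild-type cells. Trem2 was higher in knockout cells (0.26 ± 0.05, adjusted p 0.00964), and so was Adam17 (0.14 ± 0.04, adjusted p 0.0460). With the mean of the same-numbered arrays of a genotype as 1 value, the count over all genes was 99 in place of 1005, with 0 members. The adjusted p was then 0.0814 for Tnfrsf18, 0.106 for Trem2 and 0.190 for Adam17. Without both wild-type arrays numbered 2 it was 0.0503 for Tnfrsf18 and 0.0669 for Trem2, and the call of Adam17 was lost without every single array except untreated knockout array 1 (adjusted p 0.0524 to 0.131).

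Tetraspanins, another family of proteins that cross the membrane several times, moved in both directions with curdlan in wild-type cells. Of 14 measured, 3 passed as higher and 3 as lower, while 7.27% of all genes passed as higher and 12.3% as lower. The median of the 14 was -0.01. The largest were Tspan32 (-1.08 ± 0.14, SE), Tspan33 (0.84 ± 0.18), Tspan13 (0.67 ± 0.15) and Tspan4 (-0.58 ± 0.11). Tspan13 lost its call without both wild-type arrays numbered 1 (adjusted p 0.0689) or 3 (0.0568). By genotype, Tspan4 and Cd151 passed as higher in knockout cells and Tspan33 and Tspan13 as lower, against 1.48% and 3.56% of all genes. With the mean of same-numbered arrays as 1 value, their adjusted p ran from 0.0639 for Tspan33 to 0.168 for Tspan4.

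Among markers of other cells that express MS4A genes, 0 of 8 T cell markers passed in wild-type cells, 1 with an unadjusted p under 0.05. Their mean level was 5.54 to 5.61 in curdlan-treated knockout cells, 5.42 to 5.62 in untreated knockout cells, 5.42 to 5.58 in curdlan-treated wild-type cells and 5.37 to 5.41 in untreated wild-type cells. Of 5 NK cell, 5 B cell and 7 neutrophil markers 0 passed, with 2, 0 and 1 at an unadjusted p under 0.05. Over all 19937 genes, 7.27% passed as higher, 12.3% passed as lower and 6290 had an unadjusted p under 0.05. Of 6 mast cell and basophil markers, Hdc passed as higher with curdlan. Cpa3 and Kit passed as lower in knockout cells in the fit that counts the arrays as separate, with no values taken for pair means. In that fit 3.56% of all genes passed as lower. Of 8 monocyte and macrophage markers, Mertk, Fcgr1 and Cx3cr1 passed as higher with curdlan and Ccr2 as lower, and the mean level of the 8 lay between 10.63 and 10.91 on all arrays. Of 3 plasmacytoid markers, Tcf4 passed as higher with curdlan. Of the 8 dendritic cell markers, Ccr7 (0.99, adjusted p 0.00612) and Zbtb46 (0.44, 0.00539) passed as higher with curdlan in wild-type cells. Cd209a passed as lower (-2.87, 3.87e-05), and no gene of the 19937 had a larger fall. Cd209a read 6.50 to 7.09 in curdlan-treated and 8.33 to 9.38 in untreated knockout cells, against 8.16 to 8.35 and 10.83 to 11.53 in wild-type cells. H2-Ab1, Cd74 and Itgax did not pass and stood at 12.86 or above on all 12 arrays.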

How the data were processed

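RNA of 12 samples was read on 12 arrays, 3 in each of 4 groups taken from the genotype labels and titles. The deposited values are log2 expression, which the authors made with RMA, per the labels, 1 value per probe set and array. RMA subtracts background, gives arrays the same distribution and merges the probes of a set, so weak signals are compressed and low genes show smaller changes. The sources used here give no version, and nothing was normalised again. For arrays, their number limits the precision.

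Of 34760 probe sets, 21640 carried 1 gene symbol in the platform annotation, 1321 carried several and 11799 were not listed. The first kind was used, and for 954 genes with several sets the one with the highest mean over the 12 arrays, which gave 19937 genes. No dim genes were left out. Means of the 4 groups were estimated for all genes from the 12 arrays by limma 3.58.1 under R 4.3.3 (8 residual degrees of freedom, two-sided moderated test). P-values were adjusted by Benjamini and Hochberg over all genes within a comparison, with a threshold of 0.05, after the scripts were tested on simulated data. Curdlan in wild-type cells and the genotype effect averaged over treatments were tested, since neither contains the knockout curdlan difference that Ms4a4c was picked from. The rest is description.

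The members, the gene lists and the tests were chosen with earlier results of these data known. Named genes are the 6 members, every other MS4A gene measured and, of each further list, up to 4 with the largest change past the threshold. Ms4a19 and Ms4a20 were added after the order of the cluster was looked up. Likeness was taken over genes above the median gene mean of 6.96. Gene order and promoter windows are from RefSeq tables of GRCm38.p6, matched by symbol, and windows were aligned with free end gaps in Biopython 1.88.

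Whether a shared number marks a shared culture was checked, since the labels do not say. The deviations from group means of arrays with the same number had correlations over genes of 0.486, 0.526 and 0.604 in knockout cells and of 0.450, 0.368 and 0.404 in wild-type cells, against -0.479 to 0.0625 for other numbers. Numbers were therefore taken to pair arrays within a genotype. Alternatives covered this block, normalisation, a filter on dim genes, the choice of probe set, the variance prior and each array left out.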

Additional observations from a re-analysis of the deposited data

How the results depend on the processing

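The 6 members kept their direction with curdlan in wild-type cells under every alternative run, and of them Ms4a7 alone lost its call, as given in the report. The count of 6 was 5 to 6 when arrays were left out, and 4 when dim genes were left out, since Ms4a4b and Ms4a6b were then not tested. Over the 18 alternatives the adjusted p of Ms4a4c ran from 2.47e-05 to 0.00638. The count over all genes, 3899, ran from 1841 to 3373 when 1 array or both arrays of a number were left out. For the genotype effect, 1005 genes ran from 325 to 1431 and the 0 members from 0 to 4 in the same way. With the replicate block, that is the mean of same-numbered arrays of a genotype, 99 genes passed by genotype and 0 members. A replicate number shared between the genotypes gave 1621 genes and 3 members, Ms4a6b (adjusted p 0.0174), Ms4a6d (0.0325) and Ms4a6c (0.0420). Same-numbered arrays of the genotypes correlated at 0.218, 0.105 and 0.254 untreated and at 0.166, -0.134 and 0.328 with curdlan, against -0.276 to 0.00492 for other numbers untreated and -0.298 to 0.206 with curdlan. As 1 of the 6 was not above 0.1, the numbers were not taken to pair the genotypes, and the labels do not say whether they mark a shared batch. For the curdlan effect the replicate block gave 5258 genes and the same 6 members, and the block changed no other call of a member. Ms4a6d passed by genotype without dim genes (1 member, adjusted p 0.0459) and with an intensity trend and robust prior (1 member, 0.0397). In those fits 1117 of 9969 and 1110 of 19937 genes passed. The cause was not tested.

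In knockout cells the median difference of the members stayed between 1.00 and 1.27, and that of Ms4a4c between 3.39 and 4.17. The median excess of knockout over wild-type cells lay between -0.13 and 0.17 and changed sign with the array left out, while that of Ms4a4c stayed between 0.70 and 1.48. No direction of a result past the threshold was reversed. For values near or below the lower quartile of the arrays, as for Ms4a4b, Ms4a4d and Ms4a6b in untreated wild-type cells, the size of a change is uncertain.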
